A study of Mus musculus with 6 samples.

Results

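Genes that mark oligodendrocyte precursor cells were followed in RNA of whole spinal cord from adult mice lacking the stem cell transcription factor Sox2 in astrocytes. The list held 9 genes, chosen by name: Pdgfra, Cspg4, Gpr17, Olig1, Olig2, C1ql1, Lhfpl3, Neu4 and Ptprz1. Of these, 8 were matched to a row among the 35275 genes of the deposited tables. Lhfpl3 was matched to no row and was not analysed here. The 8 genes all passed the filter on low counts, as did 16137 genes in all, and their counts ran from 260 to 6770 reads per library.

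Oligodendrocyte precursor cells, also called NG2 glia, are the cells of the adult central nervous system that divide and mature into myelinating oligodendrocytes. Platelet-derived growth factor A, acting on the receptor encoded by Pdgfra, drives their division and survival. As a precursor commits, it turns off Pdgfra and Cspg4, passes through a stage of high Gpr17 and then switches on the myelin genes, whereas Olig1, Olig2 and Sox10 stay on through the whole lineage. Some of these genes are not private to precursors. Pdgfra is also made by fibroblasts of the meninges and vessels, Cspg4 by pericytes, and Ptprz1 by astrocytes.

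The Sox2 cKO group was 3 C57BL/6 mice labelled mGfap-Cre:Sox2fl/fl, in which Cre recombinase under a mouse Gfap promoter deletes floxed Sox2 mainly in astrocytes. The Ctrl group was 3 mice labelled mGfap-Cre:Sox2+/+. The series' design text instead says that controls carried Cre or the floxed allele, so that a control could carry either alone, and the methods of the study give Sox2fl/fl littermates and name no Cre for them. Age was P90 in the labels and P80 in the design text, and the labels give no treatment. Because the whole cord was used, fewer precursor cells and less RNA per cell cannot be told apart. Depth ran from 21507911 to 28392184 counted reads per library and overlapped between groups. Each library is called by the number of its column, and columns 2, 4 and 6 were taken as Ctrl and 1, 3 and 5 as Sox2 cKO. Values per library follow that order throughout. Sox2 itself had 19.9, 14.8 and 29.5 TMM-normalized counts scaled to library size (CPM) in Ctrl and 3.16, 2.69 and 2.98 CPM in Sox2 cKO. Its log2 fold change was -2.86 (SE 0.24, edgeR adjusted p = 0.000956).

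Promoter sequence was examined because SOX factors, of which Sox2, Sox5, Sox6, Sox8 and Sox10 are all present in this tissue, bind a short core. RefSeq windows on GRCm38.p6, from 250 bases before to 50 bases after the start of a gene, were at hand for 5 of the 8 genes. The stretch before the start of each is printed 5′ to 3′ on the strand of the gene. It shows Pdgfra (chr5:75152001-75152250, + strand), Cspg4 (chr9:56864854-56865032, + strand) and Ptprz1 (chr6:22875252-22875501, + strand), which were lower in Sox2 cKO mice, beside Neu4 (chr1:94020243-94020450, + strand) and Olig2 (chr16:91225300-91225456, + strand), which were not called. Capitals mark the letters CAAAG or CAATG, the SOX core, read on either strand (CTTTG and CATTG on the other strand, none of which can overlap another).
Pdgfra: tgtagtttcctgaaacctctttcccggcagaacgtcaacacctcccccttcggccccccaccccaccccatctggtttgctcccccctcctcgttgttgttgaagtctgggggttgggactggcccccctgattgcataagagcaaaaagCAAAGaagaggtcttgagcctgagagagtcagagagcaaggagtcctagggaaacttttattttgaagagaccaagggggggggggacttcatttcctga
Cspg4: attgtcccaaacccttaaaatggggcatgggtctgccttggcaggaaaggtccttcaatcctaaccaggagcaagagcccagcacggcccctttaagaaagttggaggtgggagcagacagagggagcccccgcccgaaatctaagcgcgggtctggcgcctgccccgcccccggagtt
Ptprz1: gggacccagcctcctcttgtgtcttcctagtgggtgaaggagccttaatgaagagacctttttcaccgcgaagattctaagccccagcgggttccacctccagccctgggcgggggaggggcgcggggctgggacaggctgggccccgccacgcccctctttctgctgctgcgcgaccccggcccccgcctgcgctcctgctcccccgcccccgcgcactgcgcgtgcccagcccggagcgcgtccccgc
Neu4: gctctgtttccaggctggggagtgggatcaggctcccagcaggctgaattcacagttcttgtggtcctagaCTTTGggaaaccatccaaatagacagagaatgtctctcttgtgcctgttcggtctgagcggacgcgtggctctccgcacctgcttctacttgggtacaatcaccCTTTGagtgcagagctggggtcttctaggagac
Olig2: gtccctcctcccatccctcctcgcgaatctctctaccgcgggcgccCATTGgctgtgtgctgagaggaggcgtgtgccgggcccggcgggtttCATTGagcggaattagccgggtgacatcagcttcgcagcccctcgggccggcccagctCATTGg
Olig2 had 3 matches in the printed stretch, Neu4 had 2, Pdgfra had 1, and Cspg4 and Ptprz1 had 0. In the whole windows of 300 bases the numbers were 4 for Olig2, 2 for Neu4, 1 for Pdgfra, 1 for Cspg4 and 0 for Ptprz1. At least 1 match was found in 70.3% of the 32851 promoter windows of that length. Ptprz1, among the genes that fell most, held no copy of the core in this window, and Olig2, which was not called, held the most of the 5. A match describes letters only and does not mark a bound site. Whether matches go with fold changes was not tested.

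Precursor genes were lower in Sox2 cKO spinal cord for 5 of the 8 genes tested, and 0 were higher (0 at an unadjusted p below 0.05 and 0 by DESeq2). Gpr17, Ptprz1 and Cspg4 stood at 54.7%, 60.5% and 62.7% of their mean Ctrl CPM. Pdgfra and C1ql1 stood at 77.2% and 77.7%. Olig1 was at 87.8%, Neu4 at 94.1% and Olig2 at 103.6%, and none of these 3 was called. Calls rest on edgeR's quasi-likelihood test with an adjusted p below 0.05 over all 16137 genes, of which 12.4% were called lower and 12.2% higher. The median log2 fold change of the 8 genes was -0.37, against 0.018 for all genes tested. DESeq2 called the same 5 genes lower, where it called 15.0% of all genes lower. For 6 of the 8 genes every Sox2 cKO library had a lower CPM than any Ctrl library, and 22.1% of all genes tested were lower without overlap. An exact permutation test of a single gene cannot go below p = 0.1 with 3 libraries against 3.

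**Figure D1:**
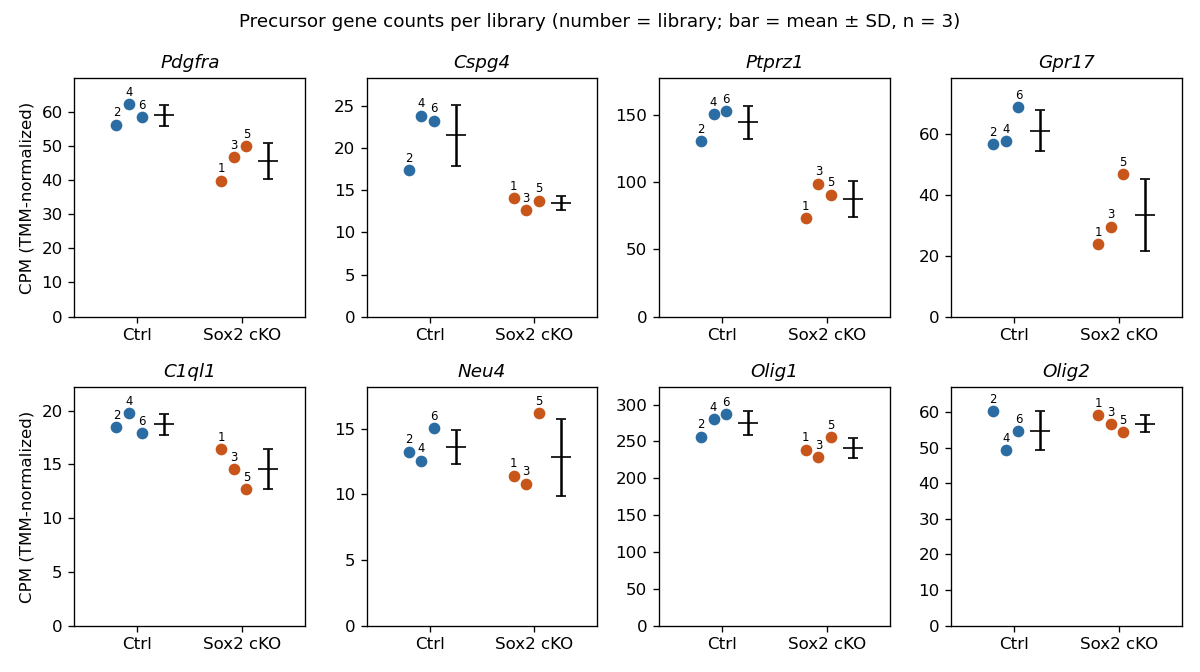
Each panel plots 1 gene, with TMM-normalized CPM on the vertical axis from 0, Ctrl libraries in blue and Sox2 cKO libraries in orange, each numbered, and the mean ± SD of the 3 libraries beside them. For Pdgfra, Cspg4, Ptprz1, Gpr17, C1ql1 and Olig1 every Sox2 cKO library lies below every Ctrl library, while Neu4 and Olig2 overlap.

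Pdgfra (ENSMUSG00000029231, chr5:75152292-75198215, + strand) encodes the receptor for platelet-derived growth factor A. It had 56.3, 62.4 and 58.5 CPM in Ctrl and 39.9, 46.8 and 50.0 CPM in Sox2 cKO. The groups did not overlap, and library 1 was lowest. The mean fell from 59.1 ± 3.07 to 45.6 ± 5.20 CPM (SD, n = 3 each), a log2 fold change of -0.37 (SE 0.097, 95% interval -0.59 to -0.16, edgeR adjusted p = 0.0235).

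Cspg4 (ENSMUSG00000032911, chr9:56865033-56899870, + strand) encodes NG2, the membrane chondroitin sulfate proteoglycan that gave these cells their other name. Its CPM was 17.4, 23.9 and 23.3 in Ctrl and 14.1, 12.6 and 13.8 in Sox2 cKO. The Sox2 cKO libraries lay close together, and Ctrl library 2 was the nearest to them. The mean fell from 21.5 ± 3.59 to 13.5 ± 0.779 CPM (SD, n = 3 each), with a log2 fold change of -0.68 (SE 0.13, 95% interval -0.97 to -0.38, edgeR adjusted p = 0.013).

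Ptprz1 (ENSMUSG00000068748, chr6:22875502-23052916, + strand) encodes a receptor tyrosine phosphatase whose outer part is also shed or secreted as the proteoglycan phosphacan. It was measured at 130.0, 150.1 and 152.5 CPM in Ctrl and at 73.0, 98.6 and 90.4 CPM in Sox2 cKO. The highest Sox2 cKO library, 3, stayed well below the lowest Ctrl library, 2. The mean fell from 144.2 ± 12.3 to 87.3 ± 13.1 CPM (SD, n = 3 each), a log2 fold change of -0.72 (SE 0.12, 95% interval -0.98 to -0.47, edgeR adjusted p = 0.0124).

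Gpr17 (ENSMUSG00000052229, chr18:31942997-31949636, - strand) encodes a G protein-coupled receptor that peaks in committed precursors and holds back their last step of maturation. Its CPM was 56.6, 57.7 and 68.8 in Ctrl and 23.9, 29.5 and 46.8 in Sox2 cKO. Library 5 stood well above the other Sox2 cKO libraries yet below every Ctrl library. On the log2 scale Gpr17 had both the largest fall of the 8 genes and the widest spread within Sox2 cKO (SD 0.49 of log2 CPM). Its mean went from 61.0 ± 6.74 to 33.4 ± 11.9 CPM (SD, n = 3 each), with a log2 fold change of -0.87 (SE 0.20, 95% interval -1.32 to -0.42, edgeR adjusted p = 0.0176). Gpr17 overlaps Lims2 on the opposite strand, and the use of strand in counting was not stated. Lims2 held 207 to 333 reads per library and had a log2 fold change of 0.13 (SE 0.12, edgeR adjusted p = 0.459).

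C1ql1 (ENSMUSG00000045532, chr11:102939264-102946688, - strand) encodes a small secreted protein of the C1q family that binds the adhesion receptor encoded by Adgrb3. It had 18.5, 19.8 and 17.9 CPM in Ctrl and 16.4, 14.6 and 12.7 CPM in Sox2 cKO. No overlap was seen in CPM, although library 1 came close to the lowest Ctrl library. The mean fell from 18.7 ± 0.963 to 14.6 ± 1.87 CPM (SD, n = 3 each), with a log2 fold change of -0.36 (SE 0.12, 95% interval -0.62 to -0.11, edgeR adjusted p = 0.0444). It lies 38351 bases from Gfap, and Gm26668, a non-coding gene on the opposite strand of both, held 4 to 15 reads per library.

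Neu4 (ENSMUSG00000034000, chr1:94020451-94028334, + strand) encodes a sialidase, an enzyme that trims sialic acid from glycoproteins and glycolipids. Its CPM was 13.2, 12.6 and 15.0 in Ctrl and 11.4, 10.8 and 16.2 in Sox2 cKO. Libraries 1 and 3 lay below all Ctrl libraries, and library 5 lay above them. The log2 fold change was -0.086 (SE 0.16, 95% interval -0.44 to 0.27, edgeR adjusted p = 0.719), an interval that still allows a fall as large as that of Pdgfra. Permuting the 6 CPM values gave an exact two-sided p of 0.7.

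Olig1 (ENSMUSG00000046160, chr16:91269772-91271933, + strand), a transcription factor of the whole oligodendrocyte lineage, was measured at 256.7, 280.7 and 287.1 CPM in Ctrl and at 238.8, 229.0 and 255.7 CPM in Sox2 cKO. The groups touched without overlapping, since Sox2 cKO library 5 stood just under Ctrl library 2. The means were 274.8 ± 16.0 and 241.2 ± 13.5 CPM (SD, n = 3 each), with a log2 fold change of -0.19 (SE 0.085, 95% interval -0.38 to -0.0005). Olig1 was not called (edgeR adjusted p = 0.125).

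Olig2 (ENSMUSG00000039830, chr16:91225457-91228677, + strand), which is needed to specify the lineage, lies 41094 bases before Olig1. Its CPM was 60.4, 49.4 and 54.8 in Ctrl and 59.3, 56.8 and 54.4 in Sox2 cKO. All 3 Sox2 cKO libraries fell inside the range of the Ctrl libraries. The log2 fold change was 0.051 (SE 0.090, 95% interval -0.15 to 0.25, edgeR adjusted p = 0.703). That interval lies above the estimates for Pdgfra, Cspg4, Ptprz1, Gpr17 and C1ql1.

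**Figure D2:**
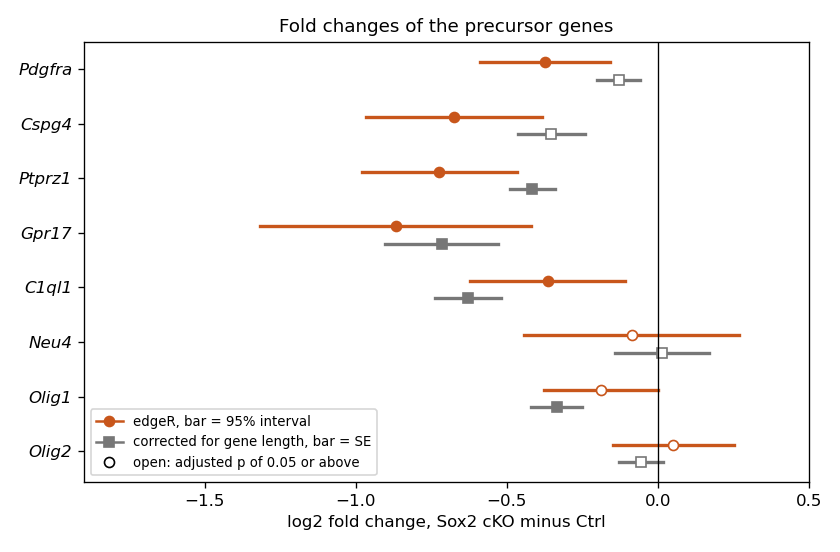
The log2 fold change of each gene, Sox2 cKO minus Ctrl, is drawn in orange with its 95% interval from edgeR and in grey with its SE after correction for gene length, filled where the adjusted p was below 0.05. Of the 8 genes, 5 have a filled orange point and 4 a filled grey point, with Gpr17, C1ql1 and Ptprz1 filled in both.

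Levels were compared between genes only per length, as FPKM (fragments per kilobase scaled to the total count, deposited by the authors). In Ctrl cord Olig1 stood far above the others, at 122.6 ± 4.09 FPKM, followed by Olig2 at 21.7 ± 2.61 and Ptprz1 at 17.2 ± 1.07 FPKM (SD, n = 3). C1ql1 at 12.3 ± 0.747 and Gpr17 at 11.3 ± 0.999 FPKM overlapped across libraries, as did Neu4 at 2.91 ± 0.230 and Cspg4 at 2.58 ± 0.378 FPKM at the low end. Pdgfra, at 8.68 ± 0.394 FPKM, lay between these pairs. In Sox2 cKO cord Gpr17, at 6.62 ± 2.21 FPKM, came after Pdgfra, at 7.17 ± 0.663 FPKM, and these 2 overlapped. The other genes kept their places by mean. Across Sox2 cKO libraries C1ql1 also overlapped Ptprz1, at 9.58 to 12.6 FPKM, and Gpr17, at 4.87 to 9.11 FPKM. FPKM is scaled by total counts rather than by TMM. On that scale the groups overlapped for Olig1, with 117.9 to 125.1 FPKM in Ctrl and 109.4 to 119.7 FPKM in Sox2 cKO. They also overlapped for C1ql1, with 11.5 to 12.9 FPKM in Ctrl and 8.72 to 11.8 FPKM in Sox2 cKO.

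Across these libraries fold changes followed the length of genes, and 4 of the 5 genes called lower are long. All tested genes were sorted by length and cut into 5 groups. The median log2 fold change went from 0.30 in the shortest group to -0.25 in the longest. The share called lower went from 1.73% to 36.0%. Pdgfra, Cspg4, Gpr17 and Ptprz1, of 6570, 8050, 5195 and 8068 bases, belong to the longest group, whose median lay above each of them. C1ql1, of 1473 bases, belongs to the shortest group, and Olig1 and Olig2, of 2162 and 2437 bases, to the next, where 3.32% of genes were called lower. Neu4, of 4511 bases, belongs to a group with a median of -0.066.

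**Figure D3:**
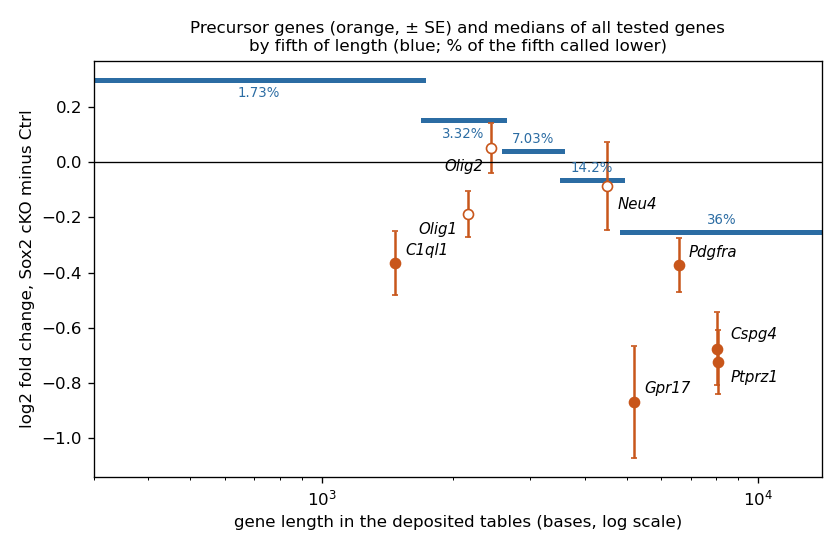
The log2 fold change of each precursor gene (orange, ± SE, filled when called by edgeR) is plotted against its length in bases on a log axis, with the median of all tested genes in each of 5 groups of length as blue bars and the share of each group called lower beside them. Every gene but Neu4, which lies on the bar of its group, is below the median of its own length group by more than its SE.

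After each library was freed of its own length trend, Gpr17, C1ql1, Ptprz1 and Olig1 were called lower, 4 of the 8 genes, and 7.0% of all genes tested were called lower. The corrected log2 fold change was -0.72 for Gpr17 (edgeR adjusted p = 0.0371) and -0.63 for C1ql1 (edgeR adjusted p = 0.0185). It was -0.42 for Ptprz1 (edgeR adjusted p = 0.0188) and -0.33 for Olig1 (edgeR adjusted p = 0.0339). Cspg4 at -0.35 (edgeR adjusted p = 0.0613) and Pdgfra at -0.13 (edgeR adjusted p = 0.242) were no longer called. The sample records give a minimum RNA integrity number of 6.8, whereas the methods of the study state a higher limit. Values per library were not given. Whether length, through RNA quality or the making of the libraries, had a part in the values of the long genes was not tested.

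The calls also rested on single libraries. With edgeR, 0 of the 8 genes were called without Ctrl library 4 or without Sox2 cKO library 1. Over all genes these fits called 0.0794% and 0.0303% lower. In each of them 5 of the 8 genes were lower at an unadjusted p below 0.05, where 14.3% and 15.0% of all genes were. DESeq2 called 2 and 5 of the 8 genes, where it called 7.67% and 10.5% of all genes lower. Cspg4 and Ptprz1 were called by edgeR in 4 of the 6 fits made without 1 library and by DESeq2 in all 6. Pdgfra was called by edgeR in 2 of the 6 fits and by DESeq2 in 5. For Gpr17 these numbers were 2 and 3, and for C1ql1 they were 1 and 2. The estimates moved less than the calls. Ptprz1 lay between -0.82 and -0.61 in the 6 edgeR fits, Cspg4 between -0.81 and -0.59 and Pdgfra between -0.45 and -0.28. Gpr17 ranged most widely, from -0.68 without Sox2 cKO library 1 to -1.19 without Sox2 cKO library 5. Leaving out Sox2 cKO library 5 took Neu4 from -0.086 to -0.29 (edgeR adjusted p = 0.171). The most calls in edgeR came without Ctrl library 2, with 6 of the 8 genes and 3089 of all genes lower. Over the whole set of genes that library was nearer to Sox2 cKO libraries 3 and 5 than to the other Ctrl libraries.

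**Figure D4:**
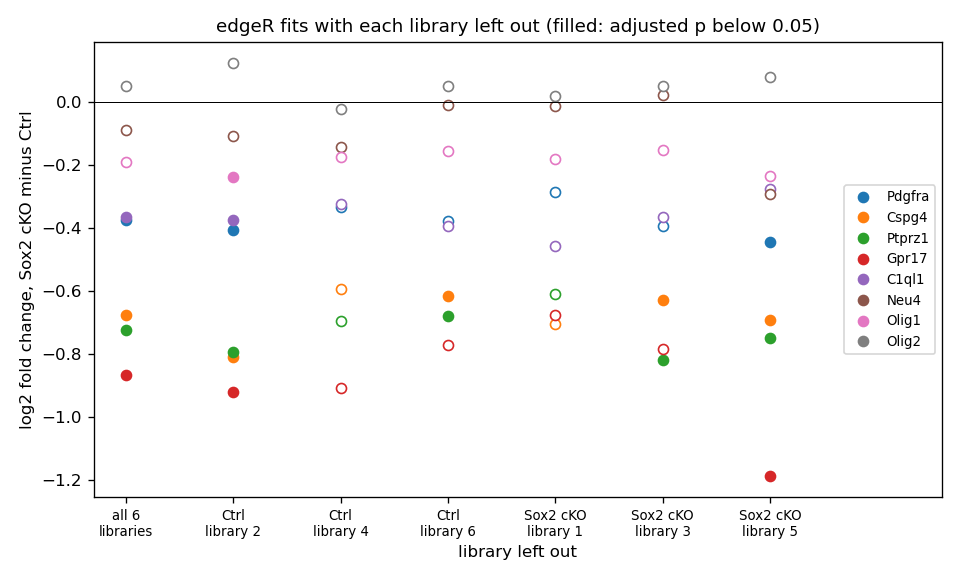
The log2 fold change of each gene, Sox2 cKO minus Ctrl, is shown with all 6 libraries and with each library left out in turn, filled where edgeR's adjusted p was below 0.05. No point is filled without Ctrl library 4 or Sox2 cKO library 1, while 6 genes other than Olig2 and Neu4 stay below 0 in every fit.

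Sox10, a transcription factor expressed from precursor to myelinating cell, was used as a measure of the whole lineage. It had 122.1, 119.5 and 96.6 CPM in Ctrl and 103.3, 99.7 and 87.9 CPM in Sox2 cKO. The groups overlapped, and its log2 fold change was -0.22 (SE 0.11, edgeR adjusted p = 0.152). Relative to Sox10, Ptprz1 was lower in every Sox2 cKO library than in any Ctrl library, with a difference of -0.52 between the group means of the log2 ratio. Olig2 was higher relative to Sox10, also without overlap, by 0.27. Both had p = 0.1 in an exact two-sided permutation test, the smallest that this design can give, and 0.4 after Benjamini-Hochberg adjustment over the 8 ratios. The ratios of the other 6 genes overlapped between groups, Gpr17 and Cspg4 included, at -0.71 (exact permutation p = 0.3) and -0.44 (exact permutation p = 0.2). The ratios used CPM that was not corrected for length. After that correction the log2 fold change was -0.29 for Sox10, of 2713 bases, -0.42 for Ptprz1 and -0.057 for Olig2. It was -0.72 for Gpr17 and -0.35 for Cspg4. The ratios also depended on the gene set against. Relative to the summed CPM of Mbp, Mog and Mag, most of it Mbp, 7 of the 8 genes were lower without overlap, each with an exact permutation p of 0.1 (0.114 adjusted over the 8), and Neu4 overlapped. The differences were -1.09 for Gpr17, -0.90 for Ptprz1, -0.83 for Cspg4, -0.55 for Pdgfra, -0.54 for C1ql1 and -0.36 for Olig1. For Olig2 the difference was -0.11, the opposite direction to its ratio to Sox10. This denominator was added with the other ratios known.

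Other genes known from precursors moved in the same direction where they were called. Of 20 such genes tested, 8 were called lower, 0 higher (0 at an unadjusted p below 0.05 and 0 by DESeq2), and the median log2 fold change was -0.30. These were Tnr, Sox6, Ednrb, Xylt1, Dscam, Vcan, Sulf2 and Sox8. Tnr, which encodes the matrix protein tenascin-R, had 45.2, 63.0 and 64.5 CPM in Ctrl and 15.5, 29.8 and 32.2 CPM in Sox2 cKO, with a log2 fold change of -1.15 (SE 0.23, edgeR adjusted p = 0.0136). Sox6, a SOX factor that keeps precursors immature, had 20.3, 24.4 and 28.5 CPM in Ctrl and 10.6, 11.8 and 11.8 CPM in Sox2 cKO, with a log2 fold change of -1.10 (SE 0.13, edgeR adjusted p = 0.00748). Neither overlapped between groups, and the Sox2 cKO libraries lay close together for Sox6 but not for Tnr, where library 1 was lowest. Ednrb, an endothelin receptor found on precursors and astrocytes alike, had a log2 fold change of -1.02 (SE 0.12, edgeR adjusted p = 0.00872). After correction for length 6 of the 20 were called lower. Over all genes tested 12.4% were called lower in the main fit and 7.0% after that correction. With single libraries left out in edgeR the count among the 20 ran from 0 to 10, where 5 to 3089 of all genes were called lower.

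Genes of later stages of the lineage were examined next. Among 11 genes of committed and premyelinating oligodendrocytes that were tested (Casr was not), 3 were called lower and 0 higher (0 at an unadjusted p below 0.05 and 0 by DESeq2), with a median of -0.20. Itpr2, an inositol trisphosphate receptor, had a log2 fold change of -0.74 (SE 0.13, edgeR adjusted p = 0.0125), and Myrf, the transcription factor that switches on myelin genes, had -0.42 (SE 0.11, edgeR adjusted p = 0.0249). Frmd4a made up the 3, and 1 of them, Itpr2, was called after correction for length. The RNA was of whole cord, and which cells held the fall of these 3 genes was not tested. Of 12 myelin and mature oligodendrocyte genes edgeR called 0, with 2 lower at an unadjusted p below 0.05, while DESeq2 called 3 lower and 2 were lower after correction for length, namely Cnp and Cldn11. Mbp, which encodes myelin basic protein, had a log2 fold change of 0.19 (SE 0.097, edgeR adjusted p = 0.181). The median over the 12 genes was -0.066 (-0.14 after correction for length), and the summed CPM was 32690 to 36580 in Ctrl and 32990 to 35530 in Sox2 cKO. Whether the precursor and myelin lists differ was not tested as lists.

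**Figure D5:**
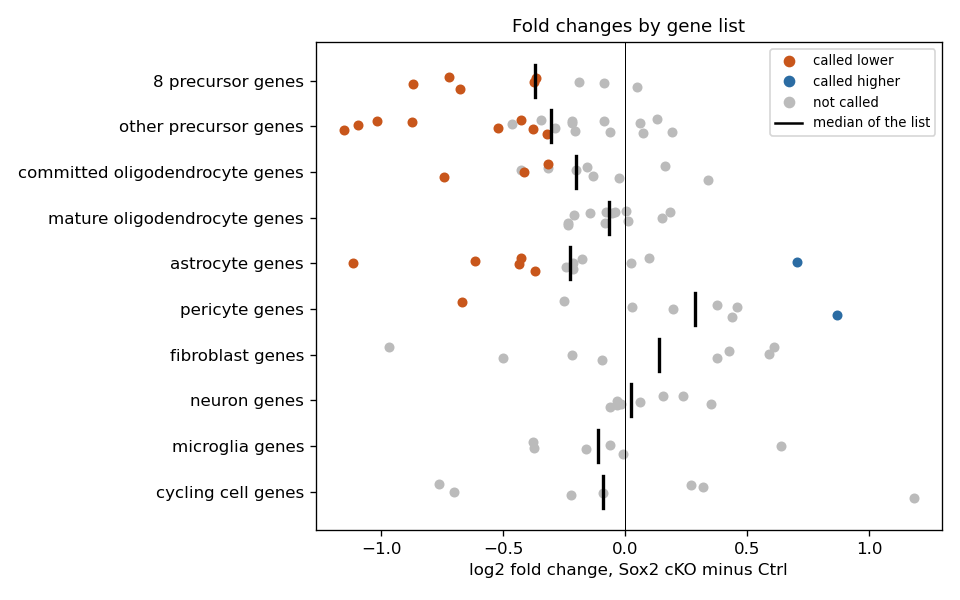
Each point is the log2 fold change of a tested gene, Sox2 cKO minus Ctrl, in the list named on the left, orange when called lower, blue when called higher and grey when not called, with the median of the list as a black bar. The medians run from -0.37 for the 8 precursor genes through -0.30, -0.20 and -0.066 for other precursor, committed and mature oligodendrocyte genes, and after correction for length they are -0.34, -0.18, -0.19 and -0.14.

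Ligands and partners of the 8 gene products were examined next. Among 5 genes for platelet-derived growth factors and their other receptor, Pdgfrb, edgeR called 0, with 1 lower at an unadjusted p below 0.05. That gene, Pdgfa, encodes the ligand of the Pdgfra receptor and had 54.2, 60.3 and 71.5 CPM in Ctrl and 56.4, 46.1 and 46.8 CPM in Sox2 cKO. The groups overlapped, and its log2 fold change of -0.32 (SE 0.12) had an adjusted p of 0.0706 in edgeR and 0.0402 in DESeq2. After correction for length it was called lower, at -0.48 (edgeR adjusted p = 0.0312). Pdgfd had 0.17 (SE 0.10, edgeR adjusted p = 0.245).

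Of 8 genes listed as ligands, receptors or binding partners, 3 were called lower and 1 higher. The list held Gria2 and Gria4, whose link to the 8 gene products was not examined. Tnc, encoding the matrix protein tenascin-C, fell by 0.85 on the log2 scale (SE 0.15, edgeR adjusted p = 0.0126). Cntn1, encoding the axonal adhesion protein contactin-1 that binds the Ptprz1 product, fell by 0.50 (SE 0.11, edgeR adjusted p = 0.0144), and Nrcam was the other gene called lower. Mdk, encoding midkine, a growth factor that also binds the Ptprz1 product, rose by 0.30 (SE 0.088, edgeR adjusted p = 0.0355) and stood at -0.044 (edgeR adjusted p = 0.787) after correction for length. Ptn, encoding pleiotrophin, the other such growth factor, was at 0.051 (SE 0.097, edgeR adjusted p = 0.728). Adgrb3, the receptor gene for C1ql1, was at -0.068 (SE 0.081, edgeR adjusted p = 0.567). After correction for length 2 of the 8 were called lower and 1 higher. The gene then higher was Gria2, at 0.51 (edgeR adjusted p = 0.0281). Nrcam was no longer called, at -0.19 (edgeR adjusted p = 0.0962). In the families of Neu4 and C1ql1, edgeR called 0 of 3 sialidase genes (1 higher at an unadjusted p below 0.05, and 0 by DESeq2) and 0 of 2 C1ql genes tested (0 unadjusted and 0 by DESeq2). Neu1, the lysosomal sialidase, was at 0.26 (SE 0.089, edgeR adjusted p = 0.0555) and was called higher after correction for length, at 0.28 (edgeR adjusted p = 0.0473). Without that correction Neu3 was at -0.37 (edgeR adjusted p = 0.138), C1ql3 at -0.11 (edgeR adjusted p = 0.520) and C1ql2 at -0.20 (edgeR adjusted p = 0.416).

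Among 7 genes of dividing cells that were tested, edgeR called 0 and DESeq2 called 0, with 2 lower and 2 higher at an unadjusted p below 0.05. Pcna was at 0.32 (SE 0.11, edgeR adjusted p = 0.0623) and Mcm2 at -0.22 (SE 0.12, edgeR adjusted p = 0.195). The others below that p, named with their values known, were Mki67 at -0.70 (SE 0.30, edgeR adjusted p = 0.116), Top2a at -0.76 (SE 0.31, edgeR adjusted p = 0.0947) and Cdk1 at 1.18 (SE 0.53, edgeR adjusted p = 0.124). All 3 were low, at a mean of 3.30 CPM or less in either group, and overlapped between groups. After correction for length Mki67 stood at -0.31 (edgeR adjusted p = 0.470).

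Markers of other cells that make some of these transcripts were measured beside them. Of 12 astrocyte genes 5 were called lower and 1 higher (2 lower and 0 higher after correction for length), with a summed CPM of 9751 to 11650 in Ctrl and 7722 to 7994 in Sox2 cKO. Gfap, whose promoter drives Cre, was at -1.11 (SE 0.15, edgeR adjusted p = 0.0102), the glutamate transporter gene Slc1a2 at -0.62 (SE 0.12, edgeR adjusted p = 0.0136) and S100b at 0.71 (SE 0.18, edgeR adjusted p = 0.0229). After correction for length Slc1a2 stood at -0.21 (edgeR adjusted p = 0.094) and S100b at 0.47 (edgeR adjusted p = 0.0621). Relative to the geometric mean of the 12 astrocyte genes, the log2 ratio was lower without overlap for Ptprz1, Cspg4 and Gpr17, with differences of -0.49, -0.41 and -0.68 (exact permutation p = 0.1 each, 0.2 adjusted over the 8). For Olig2 it was higher without overlap, with a difference of 0.30 (exact permutation p = 0.1, 0.2 adjusted). The ratios of the other 4 genes overlapped between groups, at -0.14 for Pdgfra (exact permutation p = 0.4).

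Pericyte genes, which bear on Cspg4, had 1 of 8 called lower (Notch3, -0.67, SE 0.19, edgeR adjusted p = 0.0321) and 1 higher (Kcnj8, 0.87, SE 0.22, edgeR adjusted p = 0.0215), with a summed CPM of 228.4 to 260.2 in Ctrl and 244.4 to 323.8 in Sox2 cKO. Fibroblast genes, which bear on Pdgfra, had 0 of 8 called by edgeR or DESeq2 (1 lower at an unadjusted p below 0.05) and summed to 140.5 to 354.4 CPM in Ctrl and 241.2 to 283.6 CPM in Sox2 cKO. Of these, Col1a2 was at -0.22 (edgeR adjusted p = 0.362) and Dcn at 0.61 (edgeR adjusted p = 0.133). Of 8 neuron genes edgeR called 0 (2 higher at an unadjusted p below 0.05, 2 higher by DESeq2), with Snap25 at 0.35 (edgeR adjusted p = 0.0619) and Nefl at 0.060 (edgeR adjusted p = 0.616). Of 6 microglia genes edgeR called 0 (2 lower and 1 higher at an unadjusted p below 0.05, 2 lower by DESeq2), with Csf1r at -0.38 (edgeR adjusted p = 0.0724). The summed CPM of neuron genes was 4805 to 5603 in Ctrl and 5661 to 5853 in Sox2 cKO, and that of microglia genes 215.5 to 262.6 and 174.8 to 224.7. No gene of these lists was at 0 in all 6 libraries, and the lowest mean was that of Casr, at 0.0836 CPM. The part of these cells in the values of the precursor genes was not tested.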

How the data were processed

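Poly(A) RNA of whole spinal cord (3 mice per group) was sequenced with a directional library kit. The submitters' processing notes name CASAVA, STAR 2.5, HTSeq 0.6.1, DESeq 2.1.6.3 and mm10. The authors deposited whole-number counts of reads per gene, not normalized, and FPKM values that the authors made from those counts. The use of strand in counting was not stated in the sources used here. A supplementary table of the study holds the authors' own comparison and was used only to check groups. Its named group means matched the grouping of columns 2, 4 and 6 as Ctrl and 1, 3 and 5 as Sox2 cKO. This held for 1999 of 1999 genes within a relative tolerance of 0.001, and for 0 genes with groups exchanged. That grouping came from the numbers of mice in the study, since the columns carry numbers and not sample names, and 0 further columns of values were found. Copies of a library were not seen, as chi-square per degree of freedom was 6.74 to 83.4 over the 15 pairs of libraries. Ctrl library 2 lay nearer to Sox2 cKO libraries 5 and 3, at 10.8 and 14.7, than to Ctrl libraries 4 and 6, at 25.0 and 29.2. Against Sox2 cKO library 1 it stood at 28.0.

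The genes, lists, tests and alternatives were chosen with earlier results of these data known. Gene positions came from GENCODE M21 (GRCm38), where 34490 of 35275 identifiers had a symbol. Gene length was recovered from counts and FPKM and was whole within 0.05 base for all 24442 genes with a count. The main test was the one of edgeR 4.0.16 in R 4.3.3 (filterByExpr, TMM, quasi-likelihood test, no covariate, Benjamini-Hochberg adjustment at 0.05), with a biological coefficient of variation of 0.119. The standard error was taken from the fold change and the F statistic. Log2 ratios used CPM plus 0.1, not corrected for gene length. Alternatives were DESeq2 1.42.0, RLE and upper quartile factors, no filter, at least 10 counts in every library, limma 3.58.1 on log2(FPKM + 1) and log2(FPKM + 0.1) for a mean FPKM of at least 0.5, lowess corrections (span 0.3) for gene length and GC content, and each library left out. DESeq2 with each library left out and the ratio to the summed CPM of Mbp, Mog and Mag were added once the data had been seen. The fits were tested on simulated data. P-values of the fits set the difference between groups against the spread between these libraries. Exact permutation p-values compare that difference with those of the other divisions of the 6 libraries. Named genes are the 8 and Sox2 and, from each list, the called genes with the 2 lowest log2 fold changes below 0 and the 2 highest above 0, or the 2 of highest mean CPM in a list with no call. The values of 2 genes that this rule names are not reported here. Any other gene was picked with its values known.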

Additional observations from a re-analysis of the deposited data

How the results depend on the processing

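Without a filter, with at least 10 counts in every library, with RLE factors, GC correction or DESeq2, 5 of the 8 precursor genes were called lower in each fit, and upper quartile factors called 4. Limma called 3 with either pseudocount, and of all genes 915 and 896 were then lower and 2670 and 2614 higher, against 2008 and 1962. Correction for length called 1129 lower and 976 higher. Values that lost their call were, for Pdgfra, -0.25 and -0.28 with limma (pseudocounts 1 and 0.1) and -0.13 with length correction, for Cspg4, -0.35 with length correction, and for C1ql1, -0.32 with upper quartile factors and -0.25 and -0.27 with limma. Olig1 gained its call with length correction, at -0.33. Signs turned for genes that were not called, Olig2 at -0.057 and Neu4 at 0.015 with length correction, Olig2 at -0.020 (edgeR) and -0.033 (DESeq2) without Ctrl library 4, and Neu4 at 0.024 (edgeR) and 0.0076 (DESeq2) without Sox2 cKO library 3. The causes were not tested.

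Leaving out 1 library with edgeR gave 0 to 6 precursor genes called, 5 to 3089 genes lower and 3 to 3030 higher. With DESeq2, added after the data were seen, it gave 2 to 5 precursor genes, 1080 to 2989 genes lower and 879 to 2604 higher. Fold changes across both tools' fits were -0.46 to -0.28 for Pdgfra, -0.82 to -0.59 for Cspg4, -1.21 to -0.68 for Gpr17, -0.25 to -0.15 for Olig1, -0.033 to 0.13 for Olig2, -0.47 to -0.28 for C1ql1, -0.31 to 0.024 for Neu4 and -0.84 to -0.61 for Ptprz1. No paired analysis was possible because the columns carry no replicate numbers. Between 260 and 6770 reads lay behind each value.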
